A study of Mus musculus with 8 samples.

Results

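The 10 genes described here are transcripts of the connective tissue and vessel wall of the pituitary neuro-intermediate lobe: the collagen chains Col1a1, Col1a2 and Col3a1, the proteoglycans Dcn and Lum, the glycoprotein Fn1, the receptors Pdgfra and Pdgfrb, and the pericyte and smooth muscle genes Rgs5 and Acta2. They were listed by name, and all 10 were found among the 48526 genes of the count table and passed the filter that left 15580 genes to be tested. Transcripts were measured by RNA-seq in 8 libraries, each from a pool of 5 lobes of 3 months old male C57B6 mice, in 4 groups of 2 libraries. WT lobes carried no transgene, ACreb3l2 and AXBP1 lobes carried 1 transgene each, and ACreb3l2/AXBP1 lobes carried both. Each transgene encodes a bZIP protein whose DNA-contacting region was replaced by an acidic one, so that it pairs with Creb3l2 or XBP1 and keeps it from DNA. The transgenes were driven by the POMC promoter, which works in melanotropes, the hormone cells of the intermediate lobe. Fibroblasts and pericytes are not known to use that promoter, so the groups are models of blocked factors in melanotropes and not in the cells that are best known for these 10 genes. Founder lines were derived for each transgene, and the labels name no line. Nothing in the sources says that the 2 pools of a group differed in more than their animals, and p-values measure only the spread between such pools.

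Fibroblasts fill the spaces between epithelial cords and vessels with a matrix of fibrillar collagens, small leucine-rich proteoglycans and fibronectin. Pericytes sit on capillaries inside the basement membrane, and smooth muscle cells surround larger vessels. Procollagen chains are hydroxylated, glycosylated and folded in the endoplasmic reticulum, packed into large carriers and cross-linked outside the cell. Platelet-derived growth factors act on both cell types through a pair of related receptors, of which Pdgfra is known from fibroblasts and Pdgfrb from pericytes. In the pituitary this stroma is a small share of the tissue, and the intermediate lobe itself has few vessels compared with the neural lobe dissected with it.

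The libraries held 28256086 to 37988912 counts, and the 10 members together took 0.0765% to 0.136% of a library, against 6.91% to 14.6% for Pomc, the hormone precursor of melanotropes. The label names melanotropes as the cell type, and all 8 melanotrope markers were counted, as were all 10 pituicyte and astroglial markers of the neural lobe. Anterior lobe tissue was also present, since Gh reached 115662 and 195504 normalized counts in the 2 WT libraries. The counts of the targeted genes did not bear out the labels, and they cannot refute them either. Each transgene carries the coding sequence from the leucine zipper on, so its reads may add to those of the native gene, which the counts cannot separate. Even so, the summed count was not above both WT libraries in both libraries of any carrier group: Creb3l2 stood at 28642 and 28156 normalized counts in WT and at 27174 and 26738 in ACreb3l2, and Xbp1 was at 11860.1 and 13417 in WT and at 12431 and 13831 in AXBP1. In ACreb3l2/AXBP1, Creb3l2 was at 21176 and 14024 and Xbp1 at 17615 and 12837. In the group carrying only the other transgene, Creb3l2 was at 18810.3 and 22801 (AXBP1) and Xbp1 at 9142 and 9192 (ACreb3l2). The study chose its lines by RT-qPCR of the transgene transcripts, which was not analysed here. Groups are named as their libraries are labelled. A normalized count is a count divided by the library size after scaling by TMM, the trimmed mean of M values, and set back to the mean depth. It may be compared between libraries for 1 gene but not between genes.

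RefSeq promoter windows on build GRCm38.p6 were matched for 5 of the 10 members, Col1a2, Col3a1, Pdgfra, Rgs5 and Acta2. Creb3l2 and XBP1 belong to families of bZIP factors that bind elements with an ACGT core, so 3 of the windows are shown from 250 bases before the transcription start up to it, with each ACGT in capitals. They are those with the most matches, with 1 match and, for the third fibrillar chain, with no match.
Col1a2, chr6:4505368-4505617, plus strand: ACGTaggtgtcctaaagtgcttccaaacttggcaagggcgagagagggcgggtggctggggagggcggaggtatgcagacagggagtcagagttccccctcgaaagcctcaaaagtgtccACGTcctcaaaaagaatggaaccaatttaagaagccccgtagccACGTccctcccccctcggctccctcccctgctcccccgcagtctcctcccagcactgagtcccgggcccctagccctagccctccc
Pdgfra, chr5:75152001-75152250, plus strand: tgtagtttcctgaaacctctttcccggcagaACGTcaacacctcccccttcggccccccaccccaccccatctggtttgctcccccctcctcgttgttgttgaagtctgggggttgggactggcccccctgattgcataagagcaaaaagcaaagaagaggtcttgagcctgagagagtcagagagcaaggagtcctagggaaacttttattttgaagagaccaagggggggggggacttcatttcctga
Col3a1, chr1:45311288-45311537, plus strand: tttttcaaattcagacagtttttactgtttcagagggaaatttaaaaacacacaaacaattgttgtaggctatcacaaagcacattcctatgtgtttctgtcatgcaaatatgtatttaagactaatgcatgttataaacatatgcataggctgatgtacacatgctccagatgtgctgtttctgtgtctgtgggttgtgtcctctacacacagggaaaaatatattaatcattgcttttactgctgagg
The Col1a2 window held 3 ACGT cores and the Pdgfra window 1, which reads TGACGT on the other strand, while the windows of Col3a1, Rgs5 and Acta2 held none. ACGT reads the same on both strands and was found in 26.9% of the 32851 windows of this length, TGACGT on either strand in 6.47%, the CCAAT box in 33.8% and the CArG box of smooth muscle genes in 1.47%. CCAAT was found in the windows of Col1a2 and Rgs5. The CArG box was sought only in its strict form, CC and GG around A and T alone, and none of the 5 windows held it. The Acta2 window holds ccctatatgg and ccttgtttgg, near forms with a C or G inside that this search leaves out. These matches are letters only, and no binding was measured here.

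The members differed widely in level. On the per-length scale of FPKM, fragments per kilobase of transcript scaled to library depth, Dcn was the highest in WT at 145 ± 37.8 (SD, n = 2). Col3a1 at 31.6 ± 7.88, Col1a2 at 30.4 ± 1.40, Lum at 27.0 ± 9.07 and Rgs5 at 19.9 ± 8.05 FPKM followed, and neighbours in the order of these 4 genes did not differ by more than the spread of the pools. Pdgfra at 9.01 ± 1.79 and Col1a1 at 7.78 ± 0.539 FPKM, and Acta2 at 5.23 ± 1.20 and Pdgfrb at 5.18 ± 0.152 FPKM, were again neighbours within their spread. Fn1 was the lowest at 3.33 ± 0.836 FPKM. Among pairs of members the per-length ratios varied to different extents: over the 8 libraries Dcn was 4.33 to 6.05 times Lum, Col3a1 was 0.823 to 1.19 times Col1a2, and Rgs5 was 2.80 to 7.02 times Pdgfrb. Col1a2 was 2.97 to 3.98 times Col1a1, although both chains join in type I collagen, and its ratio was highest in the 2 WT libraries, at 3.85 and 3.98. Pdgfra was 1.94 and 1.53 times Pdgfrb in WT and 2.14 to 2.55 times Pdgfrb in the 6 transgenic libraries on the FPKM scale. On normalized counts that order did not hold, since the ratio was higher in WT replicate 1 than in ACreb3l2 replicate 1. No ratio was tested. Here and below, fewer cells of a type and less RNA per cell cannot be told apart in whole lobes.

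**Figure D1:**
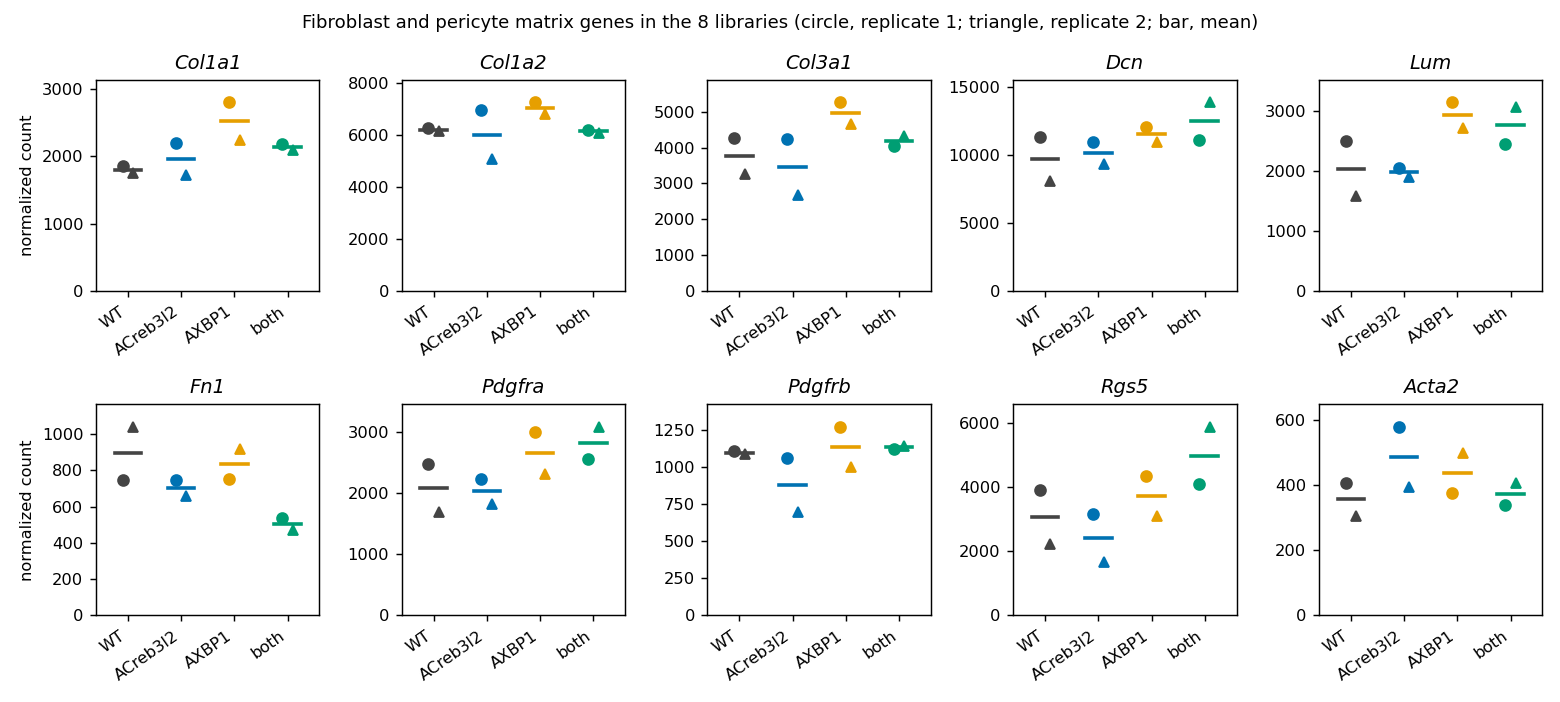
Normalized counts (y axis, linear, from 0) of the 10 members in the 8 libraries, 1 panel per gene, with the groups on the x axis ("both" is ACreb3l2/AXBP1). Circles are replicate 1, triangles replicate 2 and bars the mean of 2 libraries; Fn1 is lowest in both ACreb3l2/AXBP1 libraries (538 and 473), and replicate 2 lies below replicate 1 for most genes in WT and ACreb3l2.

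Col1a1 (chr11:94936224-94953042, GENCODE M21 on GRCm38), the first chain of type I collagen, gave 1859 and 1749 normalized counts from the WT pools, 2193 and 1727 from ACreb3l2, 2802 and 2240.3 from AXBP1, and 2187 and 2095 from ACreb3l2/AXBP1. Both AXBP1 libraries and both ACreb3l2/AXBP1 libraries lay above both WT libraries, and the ACreb3l2 libraries lay on either side of them. The log2 change of AXBP1 against WT was 0.48 (SE 0.132), the largest relative to its error of any member in that comparison, and its adjusted p in edgeR was 0.474. Col1a2 (chr6:4504814-4541544), the partner chain, gave 6252 and 6150.3 from the WT pools, 6960.0 and 5054 from ACreb3l2, 7244 and 6791 from AXBP1, and 6198 and 6063 from ACreb3l2/AXBP1. Only the AXBP1 libraries stood clear of WT, by a log2 change of 0.18 (SE 0.129), and the ACreb3l2/AXBP1 change was -0.02, with a 95% interval from -0.30 to 0.27. Col3a1 (chr1:45311538-45349706), the chain of type III collagen, gave 4281 and 3264 from the WT pools, 4228 and 2683 from ACreb3l2, 5260.0 and 4661 from AXBP1, and 4052 and 4329 from ACreb3l2/AXBP1. It too was above WT in both AXBP1 libraries, with a log2 change of 0.39 (SE 0.216), while the lowest of its 8 libraries was ACreb3l2 replicate 2. Leaving out 1 library gave AXBP1 changes from 0.31 to 0.64 for Col1a1 and from 0.21 to 0.60 for Col3a1. Col3a1 shares 141 exon bases with a miRNA gene on its strand, a share of its reads that was not separated.

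Dcn (chr10:97479609-97518143), decorin, binds collagen fibrils and holds growth factors. It gave 11292 and 8101 normalized counts from the WT pools, 10969.8 and 9325 from ACreb3l2, 12040.1 and 10986 from AXBP1, and 11134 and 13870.1 from ACreb3l2/AXBP1. Its groups overlapped WT in every comparison, because WT replicate 1 lay high, and the log2 change in ACreb3l2/AXBP1 was 0.37 (SE 0.169, adjusted p = 0.186 in edgeR). Lum (chr10:97565128-97572703), lumican, a relative of decorin that spaces collagen fibrils, lies near it on chromosome 10. It gave 2498 and 1591 from the WT pools, 2060.3 and 1904 from ACreb3l2, 3149.7 and 2722 from AXBP1, and 2449 and 3080.4 from ACreb3l2/AXBP1. Both AXBP1 libraries were above both WT libraries, by a log2 change of 0.52 (SE 0.210, adjusted p = 0.495 in edgeR). That change ran from 0.23 to 0.88 when 1 library was left out. Neither proteoglycan passed the edgeR test in any comparison with all 8 libraries and the filter on low counts. Without WT replicate 1, the log2 change in ACreb3l2/AXBP1 was 0.63 for Dcn and 0.80 for Lum, with adjusted p-values of 0.0356 and 0.0168 in edgeR, so the calls for both rest on which WT pool is the reference.

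Fn1 (chr1:71585520-71653200, minus strand), fibronectin, the glycoprotein that cells grip through integrins and on which collagen fibrils assemble, was the only member that passed the test, in 1 of the 7 comparisons made. It gave 747 and 1041 normalized counts from the WT pools, 745 and 657 from ACreb3l2, 753 and 917 from AXBP1, and 538 and 473 from ACreb3l2/AXBP1. The 2 ACreb3l2/AXBP1 libraries were the lowest of the 8, the ACreb3l2 libraries lay just under both WT libraries, and both AXBP1 libraries lay between the 2 WT libraries. Fn1 fell by 0.82 on the log2 scale in the libraries labelled ACreb3l2/AXBP1 against those labelled WT (SE 0.168, 95% interval from -1.20 to -0.44, adjusted p = 0.0189 in edgeR). In ACreb3l2 the log2 change was -0.35 (SE 0.166, adjusted p = 0.338) and in AXBP1 it was -0.10 (SE 0.166, adjusted p = 0.842), and the difference between the double change and the sum of these, -0.38 (SE 0.236), did not pass the test (adjusted p = 1.00). On the FPKM scale the WT mean was 3.33 ± 0.836, the ACreb3l2 mean 2.68 ± 0.144, the AXBP1 mean 2.72 ± 0.295 and the ACreb3l2/AXBP1 mean 1.84 ± 0.225 (SD, n = 2). The estimate was below 0 under all 18 alternatives, from -1.33 to -0.57, and the call held under 15 of them. It was lost without WT replicate 2 (-0.57, adjusted p = 0.0973), without ACreb3l2/AXBP1 replicate 2 (-0.74, adjusted p = 0.173) and in limma on the FPKM of all genes above 0 (-0.60, adjusted p = 0.135). Fn1 shares 292 of its 11685 exon bases with a gene on the other strand, Apol7d, and whether counting used strand is not given in the sources used here.

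Pdgfra (chr5:75152292-75198215), the alpha receptor for platelet-derived growth factors, gave 2474 and 1681 normalized counts from the WT pools, 2226 and 1822 from ACreb3l2, 2989 and 2303 from AXBP1, and 2558 and 3081 from ACreb3l2/AXBP1. The ACreb3l2/AXBP1 libraries were above both WT libraries, with a log2 change of 0.44 (SE 0.213, adjusted p = 0.215 in edgeR), though by little against WT replicate 1. Leaving out 1 library gave Pdgfra changes from 0.18 to 0.75 there. It shares 652 exon bases with other genes, 2 of them on the other strand. Pdgfrb (chromosome 18), the beta receptor that pericytes need, was close between the WT pools, at 1108 and 1085. It gave 1062 and 699 from ACreb3l2, 1271 and 999.7 from AXBP1, and 1122 and 1141 from ACreb3l2/AXBP1. Both ACreb3l2 libraries lay below both WT libraries and both ACreb3l2/AXBP1 libraries just above them, with log2 changes of -0.31 (SE 0.184) and 0.05 (SE 0.183), of which the second has a 95% interval from -0.37 to 0.46. The ACreb3l2 change was -0.65 without ACreb3l2 replicate 1 and -0.04 without ACreb3l2 replicate 2.

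Rgs5 (chr1:169655501-169695813), a regulator of G protein signalling that marks pericytes, was the member with the widest spread, 3.50 times between its lowest and highest library. It gave 3922 and 2247 normalized counts from the WT pools, 3172 and 1682 from ACreb3l2, 4364 and 3111 from AXBP1, and 4090.4 and 5893 from ACreb3l2/AXBP1. The ACreb3l2/AXBP1 libraries were above both WT libraries, but the log2 change of 0.69 had a 95% interval from -0.44 to 1.83 (SE 0.444, adjusted p = 0.354 in edgeR). It ran from 0.34 to 1.15 when 1 library was left out. Acta2 (chr19:34241090-34255590, minus strand), the actin of smooth muscle and of activated fibroblasts, gave 406 and 305 from the WT pools, 578 and 392 from ACreb3l2, 375 and 498 from AXBP1, and 337 and 405 from ACreb3l2/AXBP1. Its groups overlapped WT in every comparison, and its log2 change was largest in ACreb3l2, at 0.45 (SE 0.227, adjusted p = 0.365 in edgeR). Without ACreb3l2 replicate 1 that change was 0.14, below the 0.29 of AXBP1 in the same fit, so the order rests on 1 pool.

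Across the comparison of ACreb3l2 with WT, 0 of the 10 members passed the edgeR test, where 3.04% of all tested genes were called, and 0 had an unadjusted p under 0.05, as 16.8% of all genes did. DESeq2 on the counts and limma on log2(FPKM + 1) also called 0 members, against 4.85% and 1.73% of all genes. Estimates were above 0 for 3 members and below 0 for 7, with a median log2 change of -0.05 beside 0.01 over all tested genes. No member had both libraries above both WT libraries, as 22.3% of tested genes did, and 2 had both below, Fn1 and Pdgfrb, as 23.2% did. The sign of the median turned on single pools: it was 0.14 without WT replicate 1 and without ACreb3l2 replicate 2, and -0.22 and -0.24 without the other library of either group, and it was 0.02 with scaling by total counts and 0.01 with scaling by endothelial markers.

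In AXBP1 against WT, 0 of 10 members were called, as were 0% of all tested genes in edgeR. Col1a1 and Lum had unadjusted p-values under 0.05 (0.00456 and 0.0406), and DESeq2 and limma called 0 members, against 80 and 9 of all genes and 1554 genes with an unadjusted p under 0.05 in edgeR. Estimates were above 0 for 9 members, all but Fn1, with a median of 0.28 beside 0.00 over all tested genes, and for 3 members with endothelial scaling. Both libraries were above both WT libraries for 4 members, the 3 collagen chains and Lum, where 22.3% of tested genes met that rule, and below for 0, where 23.8% did. Without WT replicate 1 the median was 0.52, and without WT replicate 2 it was 0.13. When libraries were scaled by 13 endothelial marker genes in place of TMM, which moved the median of all genes to -0.40, the members' median was -0.09.

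In ACreb3l2/AXBP1 against WT, 1 of 10 members was called, Fn1, where 10.1% of all tested genes were called, so the members were called at the rate of the whole table. Estimates were above 0 for 8 members, all but Fn1 and Col1a2, with a median of 0.20 beside 0.01, and for 1 member with endothelial scaling. Without WT replicate 2 the median was 0.08 with 6 members above 0, and without WT replicate 1 it was 0.33. Both libraries were above both WT libraries for Col1a1, Pdgfra, Pdgfrb and Rgs5, where 29.6% of tested genes met that rule, and below for Fn1, where 28.7% did. Endothelial scaling moved the median of all genes to -0.48 and that of the members to -0.28, and left only Rgs5 above 0. Scaling by total counts moved all genes to 0.17 and the members to 0.36. When genes with low counts were kept in the fit, 5 members were called here (Dcn, Fn1, Lum, Pdgfra and Rgs5) beside 10.9% of all genes in that fit, 3 in AXBP1 beside 2.13% and 2 in ACreb3l2 beside 4.92%. In that fit edgeR gave most genes the spread of the trend alone, with a median prior degrees of freedom that is infinite beside a median of 5.99 in the filtered fit, so that for most genes the gap between their own pools did not enter the test.

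**Figure D2:**
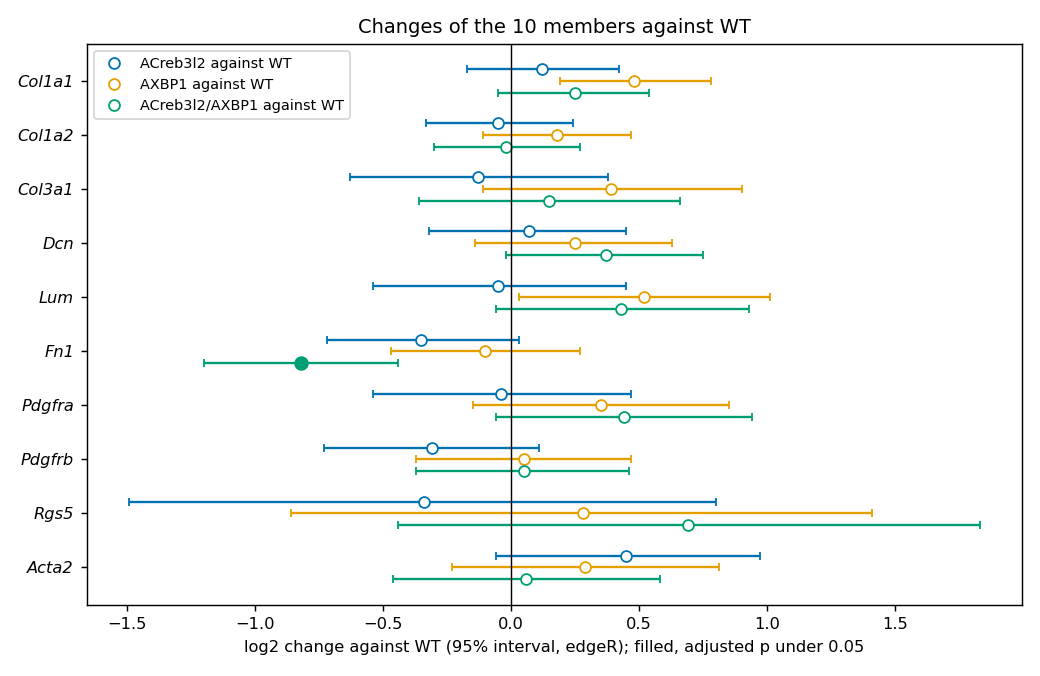
Log2 change against WT (x axis) of each member (y axis) in ACreb3l2, AXBP1 and ACreb3l2/AXBP1, with bars for the 95% interval of the edgeR fit (2 libraries a group); a filled point passed an adjusted p of 0.05. Only Fn1 in ACreb3l2/AXBP1, at -0.82, is filled, and of the other intervals those of Col1a1 and Lum in AXBP1 alone lie off 0.

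Direct comparisons of the transgenic groups gave no call among the members in edgeR. Between ACreb3l2 and AXBP1, 0 of 10 were called against 0.719% of all genes, with unadjusted p-values under 0.05 for Col1a1, Col3a1 and Lum, as for 9.49% of all genes, and log2 changes of -0.36, -0.52 and -0.57. The median over the members was -0.36 with 9 below 0, but 0.09 with 3 below 0 under endothelial scaling, which moved the median of all genes to 0.48. It was -0.54 and -0.18 without ACreb3l2 replicate 1 and 2, and -0.19 and -0.52 without AXBP1 replicate 1 and 2. In limma on log2(FPKM + 1) it was -0.15, beside 0.15 over all genes. Between ACreb3l2/AXBP1 and ACreb3l2, 0 members and 0% of genes were called (DESeq2 called 36 genes and limma 0, and 1112 had an unadjusted p under 0.05). Fn1 alone of the members had an unadjusted p under 0.05 there, with a log2 change of -0.47. Between ACreb3l2/AXBP1 and AXBP1, 0 members were called against 0.623% of genes. Fn1 again stood out, with a log2 change of -0.72 (SE 0.169, adjusted p = 0.123 in edgeR), a change that DESeq2 called (adjusted p = 0.00555) beside 1.82% of all genes and that edgeR called without either WT library (adjusted p = 0.0404 and 0.0382) beside 0.995%. The interaction, the double change less the sum of the single ones, gave 0 members and 0% of genes in edgeR, with 0 members and 386 genes at an unadjusted p under 0.05, and 4 genes called by DESeq2. These comparisons share libraries, and their values are given side by side only.

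Most members moved together over the 8 libraries, in which group and pool differences are mixed. There, log2 CPM (counts scaled to library depth, prior count 2) of Dcn and Pdgfra gave a Pearson r of 0.96, Lum and Pdgfra 0.95, and Pdgfra and Rgs5 0.94. Among the 28 pairs of the 8 members other than Fn1 and Acta2, a set picked after the values were seen, r ran from 0.37 to 0.96 with a median of 0.79, while r of Fn1 with the other members ran from -0.67 (Dcn) to 0.30 (Col1a2). These are descriptions over n = 8 libraries in 4 groups, which share depth scaling. Replicate 1 was above replicate 2 for 9 members in WT (all but Fn1), for 10 in ACreb3l2 and for 8 in AXBP1, and for 3 in ACreb3l2/AXBP1. The median size of that gap over the members was 0.45 on the log2 scale for WT, 0.40 for ACreb3l2, 0.30 for AXBP1 and 0.23 for ACreb3l2/AXBP1, beside 0.16, 0.13, 0.09 and 0.15 over all tested genes. Replicate numbers carry no order.

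The 10 other genes whose pattern was most like the mean of the 10 centred member profiles were Bgn, Cygb, Icam2, Arap3, Plau, Greb1, Ushbp1, Igfbp7, Pear1 and Exoc3l2, with Pearson r from 0.983 (Bgn) to 0.96 (Exoc3l2) over the 8 libraries. Bgn, biglycan, a proteoglycan of the same family as decorin and lumican, and Plau, the urokinase protease, are on the matrix lists used here. The other 8 are on none of the lists, which hold few genes per cell type, so the cell type of these 8 was not assigned. Of the members themselves, Col3a1 had the highest r with that mean, 0.98, and Fn1 the lowest, -0.20.

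Markers of some other cell types moved with or against the members, and their part in the values above was not tested. Relative to the WT mean, the mean log2 CPM of the 9 members without Fn1 was 0.19 and -0.19 for the WT pools, 0.20 and -0.27 for ACreb3l2, 0.42 and 0.22 for AXBP1, and 0.19 and 0.38 for ACreb3l2/AXBP1. The 13 endothelial markers were at 0.16 and -0.16, 0.29 and -0.39, 0.61 and 0.20, and 0.35 and 0.63 in the same order of libraries, so that the libraries above and below the WT mean were the same. The 8 melanotrope markers were of the opposite sign in 7 of the 8 pools, at -0.15 and 0.15 for the WT pools, -0.10 and -0.14 for ACreb3l2, -0.28 and -0.20 for AXBP1, and -0.32 and -0.69 for ACreb3l2/AXBP1. Since values are centred on the WT mean, the 2 WT pools always have opposite signs and are not separate observations in such counts of signs. All genes of both lists were counted in every group, and summed normalized counts of the endothelial list ran from 7013 to 8708 for WT, 5742 to 10158 for ACreb3l2, 9210.4 to 11735 for AXBP1 and 9848 to 12121 for ACreb3l2/AXBP1. Fn1 was at -0.24 and 0.24 for the WT pools, -0.24 and -0.42 for ACreb3l2, -0.23 and 0.06 for AXBP1, and -0.71 and -0.89 for ACreb3l2/AXBP1. It had the sign of the melanotrope list in 7 of the 8 pools, all but AXBP1 replicate 2, and both were lowest in ACreb3l2/AXBP1 replicate 2. The 14 other fibroblast markers tested were at -0.06 and 0.06 for the WT pools and 0.10 and 0.02 for ACreb3l2. They were at 0.22 and 0.07 for AXBP1 and 0.10 and 0.05 for ACreb3l2/AXBP1. Their sign differed from that of the 9 members in both WT pools and in ACreb3l2 replicate 2. The 14 other pericyte and smooth muscle markers differed in sign from the 9 members only in AXBP1 replicate 2, at -0.02.

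**Figure D3:**
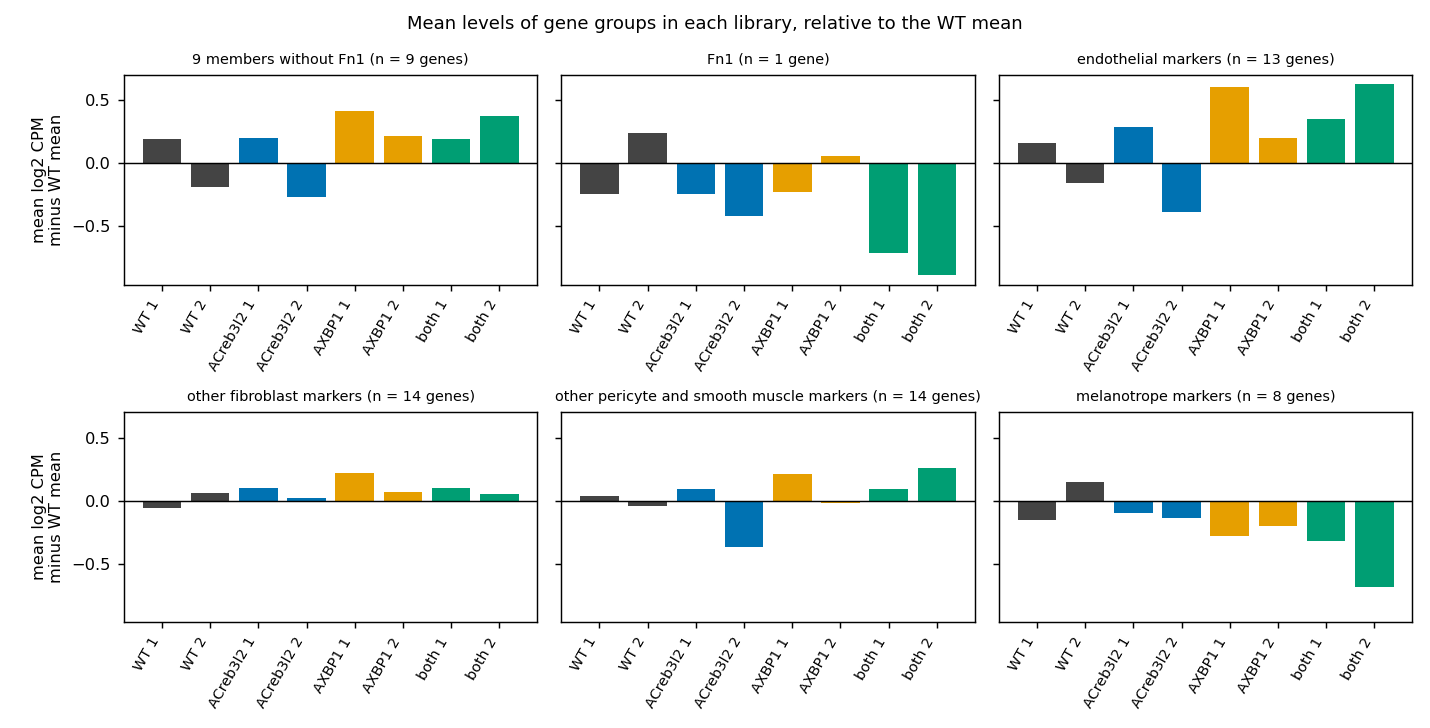
Mean log2 CPM minus the WT mean (y axis) in each of the 8 libraries (x axis, "both" is ACreb3l2/AXBP1) for the 9 members without Fn1, for Fn1, and for lists of endothelial, other fibroblast, other pericyte and smooth muscle, and melanotrope markers. The 9 members and the endothelial markers are above and below 0 in the same libraries, while Fn1 is at -0.71 and -0.89 in the ACreb3l2/AXBP1 libraries.

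Other markers of the same cells were also counted, beside 3.04%, 0% and 10.1% of all genes called in ACreb3l2, AXBP1 and ACreb3l2/AXBP1. Of 16 further fibroblast markers 14 were tested and 0 were called in any comparison with WT, with medians of 0.04, 0.24 and 0.07 in ACreb3l2, AXBP1 and ACreb3l2/AXBP1. Gsn, gelsolin, an actin-severing protein, and Lrp1, an endocytic receptor, had the most counts of that list, with log2 changes of 0.04 (SE 0.144) and -0.02 (SE 0.120) in ACreb3l2/AXBP1. Of 16 further pericyte and smooth muscle markers 14 were tested, 0 were called, and the medians were -0.12, 0.10 and 0.21. Notch3, the Notch receptor of mural cells, changed by 0.08 (SE 0.101) and Abcc9, a potassium channel subunit of pericytes, by 0.35 (SE 0.360) in ACreb3l2/AXBP1, both short of the test.

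Calls among related matrix genes in ACreb3l2/AXBP1 are to be read beside the 10.1% of all genes called there. The values of these genes are with TMM, and endothelial scaling shifts all genes of AXBP1 and ACreb3l2/AXBP1 down by the amounts given above. Among 10 other fibrillar and interstitial collagens, 0 were called in any comparison with WT. Their estimates were above 0 for 10 of 10 in AXBP1 (median 0.29) and 8 of 10 in ACreb3l2/AXBP1 (median 0.09). Col12a1, a collagen that decorates fibrils, had a log2 change of 0.33 (SE 0.118, adjusted p = 0.484 in edgeR) in AXBP1. The 22 small proteoglycans, elastic fibre and matricellular genes gave 0 calls, with medians of 0.05, 0.25 and 0.11 in the 3 comparisons. Of 13 basement membrane genes 1 (7.69%) was called, the laminin chain Lamb1, at 4694 and 5296 normalized counts in WT and 4014 and 3003 in ACreb3l2/AXBP1, a fall by 0.51 on the log2 scale (SE 0.136, adjusted p = 0.0451 in edgeR). Estimates of that list were above 0 for 12 of 13 genes in AXBP1 (median 0.20) and 10 of 13 in ACreb3l2/AXBP1 (median 0.06). In AXBP1 5 of the 13 had an unadjusted p under 0.05 in edgeR, beside 9.97% of all genes. Of 12 matrix proteases and inhibitors 1 (8.33%) was called, the inhibitor Timp1, a gene of low count, at 74.7 and 94.8 in WT and 45.4 and 26.6 in ACreb3l2/AXBP1, a fall by 1.24 (SE 0.295, adjusted p = 0.0300 in edgeR). Both Timp1 libraries were below both WT libraries, as were both Lamb1 libraries.

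Of the 19 genes that fold, modify, export and cross-link collagen, 4 fell in ACreb3l2/AXBP1, 21.1% beside 10.1% of all genes, and 0 rose. P4hb, protein disulfide isomerase and the beta subunit of prolyl 4-hydroxylase, had 33341 and 39875 normalized counts in WT and 23648 and 18911 in ACreb3l2/AXBP1, and it fell by 0.78 (SE 0.128, adjusted p = 0.00725 in edgeR). Mia3, which builds export carriers for collagen at endoplasmic reticulum exit sites, had 8818 and 8997 in WT and 6441 and 6099.6 in ACreb3l2/AXBP1, and it fell by 0.51 (SE 0.0768, adjusted p = 0.00503 in edgeR). Colgalt1, a collagen galactosyltransferase, and P3h1, a prolyl 3-hydroxylase, fell by 0.33 and 0.38 (adjusted p = 0.0363 and 0.0447 in edgeR). Both libraries of these 4 genes lay below both WT libraries. In ACreb3l2 2 of the 19 fell, Colgalt1 by 0.48 and Mia3 by 0.34, 10.5% beside 3.04% of all genes, and in AXBP1 0 did. With scaling by total counts no gene of any wider list was called in ACreb3l2. Secretory cells of many kinds use these genes, and the cells that hold the transcripts cannot be told apart in whole lobes.

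Of 20 genes of PDGF and TGF-beta signalling, 1 (5.00%, beside 10.1% of all genes) rose in ACreb3l2/AXBP1, Pdgfd, a ligand of the beta receptor, from 1125 and 992 normalized counts in WT to 1319 and 1797, a log2 change of 0.56 (SE 0.140, adjusted p = 0.0364 in edgeR). Of 11 integrins for matrix, 1 (9.09%) rose, Itga11, the alpha chain of a receptor for fibrillar collagen, from 66.0 and 58.8 to 99.7 and 107, a log2 change of 0.73 (SE 0.200, adjusted p = 0.0477 in edgeR). Both libraries of either gene were above both WT libraries. Over all 15 wider lists, 11 of 190 tested genes were called in ACreb3l2/AXBP1, 5.79% beside 10.1% of the table, 2 in ACreb3l2 (1.05%) and 0 in AXBP1, where DESeq2 called 1. Beside matrix genes these were Tbx19 and Scg2 of the melanotrope list, which fell by 0.88 and 0.57 in ACreb3l2/AXBP1, and Aqp4 of the pituicyte list, which rose by 0.51. The endothelial, macrophage, anterior lobe and erythroid lists gave 0 calls in any comparison with WT in edgeR. The endothelial estimates were above 0 for 13 of 13 genes in AXBP1 (median 0.42, 2 with an unadjusted p under 0.05, beside 9.97% of all genes) and in ACreb3l2/AXBP1 (median 0.56, 4 such genes, beside 29.7% of all genes). The medians of the macrophage, anterior lobe and erythroid lists were 0.14, 0.05 and 0.45 for ACreb3l2, -0.02, -0.51 and -0.19 for AXBP1, and -0.04, -0.08 and -0.24 for ACreb3l2/AXBP1. In AXBP1, where 9 of 10 members had estimates above 0, 7 of 9 anterior lobe genes were below 0 and 3 had an unadjusted p under 0.05, beside 9.97% of all genes. Gh, growth hormone, was at 49688 and 63572 normalized counts there, below both WT libraries (115662 and 195504), with a log2 change of -1.46 (SE 0.439, adjusted p = 0.484 in edgeR). The 10 pituicyte and astroglial markers had medians of 0.25 for ACreb3l2 (9 above 0), 0.17 for AXBP1 (7 above 0) and 0.31 for ACreb3l2/AXBP1 (10 above 0, 5 with an unadjusted p under 0.05, beside 29.7% of all genes). The part of these differences in tissue markers in the values of the members was not tested.

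**Figure D4:**
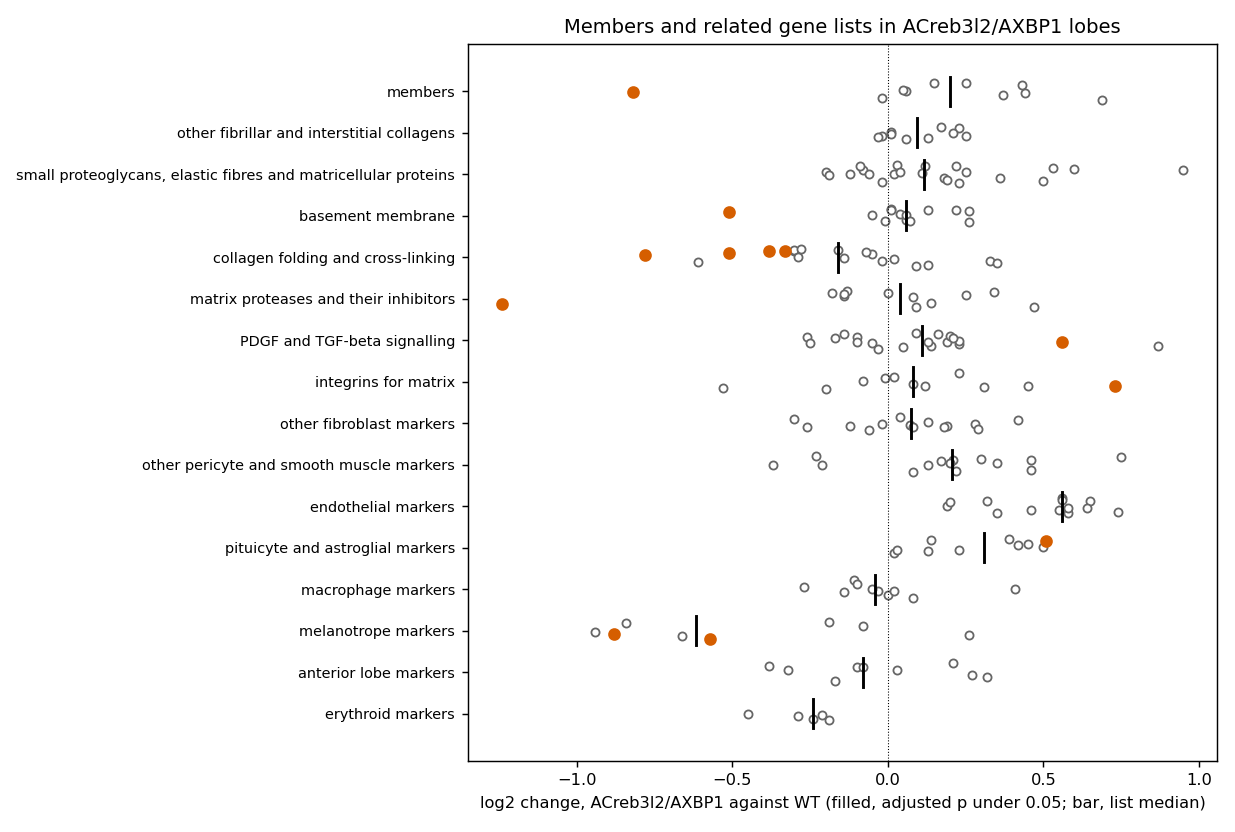
Log2 change in ACreb3l2/AXBP1 against WT (x axis) of every tested gene of the members and the 15 wider lists (y axis, 1 row a list, points spread vertically at random), with filled points for an adjusted p under 0.05 in edgeR and a bar at each list's median. Fn1 is the only filled member, and 4 filled genes lie in the list for collagen folding and cross-linking.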

How the data were processed

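RNA of pooled neuro-intermediate lobes was sequenced. Per the labels ribosomal RNA was depleted, while the study's methods name a stranded mRNA kit. The deposited raw counts are whole reads per gene, which the authors obtained by trimming with Trimmomatic, aligning to mm10 with Tophat and counting with HTSeq-count. The annotation release and strand setting are not given in the sources used here. The deposited FPKM values were made by the authors with a tool not given for that file, and were used for levels per length. Groups came from the labels. Genes with a mean above 20 counts after median-ratio scaling were tested (15580 of 48526, holding 99.9% of counts). The model, fitted to the 4 groups at once, was the quasi-likelihood one of edgeR 4.0.16 (R 4.3.3) after TMM scaling and robust estimation of the spread. SE is the log2 change divided by the root of its F. Adjusted p-values are Benjamini and Hochberg's over all tested genes, and called means under 0.05. Alternatives used DESeq2 1.42.0, limma 3.58.1, other scalings, no filter, a replicate block and leaving out each library. The fit was tested on simulated data. The members and the 15 wider lists were chosen with earlier results of these data known. All members were named, and up to 4 called genes of each wider list with the largest change in a comparison with WT. Where a list had none called, the 2 genes with most counts were picked, and not all of these are named. The 10 genes most like the mean member profile were also named. Same-numbered libraries deviated from their group means with correlations from -0.197 to 0.0887 across genes, so numbers were not taken as pairs. Promoters are RefSeq's, and gene coordinates GENCODE M21's, counted from 1.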

Additional observations from a re-analysis of the deposited data

How the results depend on the processing

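The count of members called in ACreb3l2/AXBP1 against WT, 1 as reported, was 5 with no filter on low counts and 0 in limma on the FPKM of all genes above 0, and from 0 to 3 when 1 library was left out. It was 0 without WT replicate 2 or ACreb3l2/AXBP1 replicate 2 where genes called in all were 355 (2.28%) and 218 (1.40%), and 3 without WT replicate 1 (Dcn, Fn1 and Lum), where genes called in all were 2003 (12.9%). With no filter the members called, beside the share of all 29547 genes fitted, were 2 in ACreb3l2 against WT (4.92%), 3 in AXBP1 against WT (2.13%), 5 in ACreb3l2 against AXBP1 (2.47%), 4 in ACreb3l2/AXBP1 against ACreb3l2 (1.74%), 2 in ACreb3l2/AXBP1 against AXBP1 (2.56%) and 1 for the interaction (0.426%), where 0 were called as reported. The genes called in ACreb3l2/AXBP1 against WT went from 1566 to 3209 (10.9%), and the median prior degrees of freedom was infinite in that fit. DESeq2 called 1 member (Fn1) in ACreb3l2/AXBP1 against AXBP1, and leaving out 1 library gave 0 to 1, with 1 without either WT library. Genes called over the wider lists were 0 with total counts and 5 with DESeq2 in ACreb3l2 (2 as reported), 1 with DESeq2 in AXBP1 (0) and 18 with DESeq2 in ACreb3l2/AXBP1 (11). The members' median moved to -0.09 in AXBP1 and -0.28 in ACreb3l2/AXBP1 with endothelial scaling, and ran from 0.13 to 0.52 in AXBP1 when 1 library was left out. The fit with the replicate block called 1 member in ACreb3l2/AXBP1 against WT (Fn1, -0.81, adjusted p = 0.0286) and 0 in the other comparisons, with medians of -0.04, 0.30 and 0.21, and changed no other call of a member. It moved the genes called in ACreb3l2 against WT from 473 to 321 and in ACreb3l2/AXBP1 against WT from 1566 to 1113.

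Of the 540 estimates of single members under alternatives, those that turned sign were in no case called in either fit. Endothelial scaling, whose construction takes out any shift shared with that list, gave Lum 0.06 and Pdgfra 0.04 in ACreb3l2. In AXBP1 it gave Col1a2 -0.23, Dcn -0.14, Pdgfra -0.05, Pdgfrb -0.37, Rgs5 -0.12 and Acta2 -0.06. In ACreb3l2/AXBP1 it gave Col1a1 -0.24, Col3a1 -0.33, Dcn -0.12, Lum -0.04, Pdgfra -0.04, Pdgfrb -0.45 and Acta2 -0.42. Total counts gave Col1a2 0.03, Lum 0.02 and Pdgfra 0.03 in ACreb3l2 and Col1a2 0.14 in ACreb3l2/AXBP1. FPKM in limma, with a pseudocount of 1, of 0.1 and over all genes above 0, gave Lum 0.01, 0.02 and 0.01 and Pdgfra 0.10, 0.11 and 0.10 in ACreb3l2, and Pdgfrb -0.11, -0.13 and -0.11 in AXBP1, where the median of all genes was -0.13, -0.16 and -0.04. The cause of these turns was not tested. Leaving out 1 library gave ranges across 0 in ACreb3l2 for Col1a1 (-0.06 to 0.29), Col1a2 (-0.29 to 0.17), Col3a1 (-0.49 to 0.17), Dcn (-0.16 to 0.33), Lum (-0.33 to 0.32), Pdgfra (-0.29 to 0.27) and Rgs5 (-0.88 to 0.11). It did so in AXBP1 for Fn1 (-0.32 to 0.16), Pdgfrb (-0.13 to 0.22) and Rgs5 (-0.07 to 0.73), and in ACreb3l2/AXBP1 for Col3a1 (-0.04 to 0.36) and Acta2 (-0.14 to 0.28). Where a group was left with 1 library, that library was assumed to vary like the other groups. Members had 280 to 15647 raw counts in a library, and the spread between 2 pools limits these values. The share of counting error in that spread was not measured.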
